A study of Mus musculus with 27 samples.

Results

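A set of 10 genes of extracellular matrix turnover was followed across 9 RNA-seq libraries of the mouse cell line mK4. They were the matrix metalloproteinases Mmp2, Mmp3, Mmp9, Mmp13, Mmp14 and Mmp15, the tissue inhibitors of metalloproteinases Timp1, Timp2 and Timp3, and the protease Adamts1. These 10 members were taken by gene symbol from a table of 24953 genes, and all 10 symbols were listed in it. mK4 is a line derived from the metanephric mesenchyme, the cell population that gives rise to the nephrons of the kidney. Control cells carried no engineered deletion. Runx1KO cells carried a CRISPR-Cas9 deletion of exon 3 of the transcription factor gene Runx1, and ZebDKO cells carried deletions of exon 2 of Zeb1 and exon 1 of Zeb2, which encode repressors of epithelial genes. All were grown in medium with 10% FBS and collected at confluency per the labels, or just short of it per the study's methods, and each genotype had 3 poly(A) RNA-seq libraries, given here as TPM, a value scaled for transcript length and library sum. ATAC-seq and ChIP-seq peak lists of control and Runx1KO cells were set beside the expression values. How many clones the libraries of a genotype came from was not given in the sources used here, so clone and genotype cannot be told apart, and the p-values measure the spread between libraries that may share a clone.

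Matrix metalloproteinases are zinc-dependent enzymes that are made as inactive precursors and cut collagens, proteoglycans and cell surface proteins. Some are secreted and others, among them Mmp14 and Mmp15, are anchored in the plasma membrane. Timps bind the active site of these enzymes and block it, with Timp1 a weak inhibitor of the membrane-anchored members and Timp3 able to inhibit several Adam and Adamts enzymes as well. Mmp14 and Timp2 together are also known to activate the Mmp2 precursor at the cell surface. Adamts1 is a secreted protease that cleaves the proteoglycans aggrecan and versican.

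The libraries of 1 genotype correlated at Pearson's r of 0.994 to 0.996 across 13374 genes, and libraries of different genotypes at 0.912 to 0.927. Each library had between 12541 and 12697 genes at 1 TPM or more. TPM of the whole Runx1 gene was 15.6 to 18.7 in control, 28.5 to 30.3 in Runx1KO and 9.4 to 10.5 in ZebDKO cells, and TPM of Zeb1 was 14.2 to 15.6, 0.1 to 0.2 and 14.8 to 16.8 in the same order. Zeb2 was at 4.9 to 5.5, at 0.2 and at 1.6 to 1.8 TPM. Reads outside a deleted exon still count towards these values, so they do not check the deletions. Of 9 genes listed for the metanephric mesenchyme, 5 passed the filter on low values (Osr1, Pax2, Eya1, Sall1 and Gdnf), while Six2, Wt1, Hoxd11 and Cited1 stayed under 1 TPM in every library. Of the 5, Osr1, Eya1 and Gdnf were called lower in Runx1KO than in control cells, with Osr1 at a mean of 66.4 TPM in control, 0.4 in Runx1KO and 18.2 in ZebDKO cells and Gdnf at 12.7, 0.1 and 39.8 TPM. Pax2 and Sall1 were higher in Runx1KO than in control cells, under the 2-fold limit. Pax2 was at a mean of 313 TPM in control, 470 in Runx1KO and 222 in ZebDKO cells, and Sall1 at 52.1, 65.7 and 37.0 TPM. Of 8 tested genes of a mesenchymal list, 5 were called lower in Runx1KO (Fn1, Twist2, Zeb1, Zeb2 and S100a4) and 2 in ZebDKO cells (Zeb2 and S100a4). Zeb1 and Zeb2 carry deletions in ZebDKO cells, so neither marks a state there. In Runx1KO both passed the filter only through control. Vim did not differ detectably in Runx1KO, and Cdh2 and Pdgfrb were lower under the 2-fold limit. In ZebDKO cells Fn1 was higher, at a mean of 97.3 TPM beside 52.6 in control, under that limit. Zeb1 overlapped control there, and Vim, Cdh2, Twist2 and Pdgfrb were lower under the limit. Over all genes tested, 5.10% were called lower in Runx1KO and 7.28% in ZebDKO cells against control. The summed TPM of 10 epithelial genes was 4.4 to 6.8 in control, 2582 to 2664 in Runx1KO and 1148 to 1207 in ZebDKO cells. Most of this sum was the keratin Krt8, at a mean of 2353 TPM in Runx1KO and 1050 TPM in ZebDKO cells. Cdh1 and Cldn7 stayed under 1 TPM in all 9 libraries, Epcam was listed at 0 in control and Runx1KO cells and was at 27.9 TPM in ZebDKO cells, and Ovol1 and Tjp3 were called higher in Runx1KO cells, while in ZebDKO cells Ovol1 was under the filter and Tjp3 was not called. Of the list, 7 of 7 tested genes were called higher in Runx1KO and 4 of 5 in ZebDKO against control. The shares called higher over all genes tested were 7.91% and 7.49%. Krt18, Cldn4, Grhl2 and Esrp1 were under 1 TPM in every control library and passed the filter only through Runx1KO. The same held for Krt18, Cldn4 and Epcam in the comparison of ZebDKO with control. These genes could come out only higher, so the counts add no support. The part of these mesenchymal and epithelial genes in the values of the members was not tested.

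Of the 10 members, 6 were expressed above the filter, a level of 1 TPM or more in 3 or more of the 6 libraries compared. Mmp2, Mmp15, Timp1, Timp2, Timp3 and Adamts1 passed it in all 3 comparisons. Mmp3, a stromelysin, was listed at 0 in all 9 libraries. Mmp13, an interstitial collagenase, was at 0.2, 0 and 0.3 TPM in control, at 0, 0.1 and 0 TPM in Runx1KO and at 0.6, 0.5 and 0.4 TPM in ZebDKO cells. Its ZebDKO libraries were all above the other 6, although every one of these values was under 1 TPM in a table that moves in steps of 0.1. Mmp14 was at 0.1 to 0.2 TPM in control, 0 to 0.1 in Runx1KO and 0 to 0.1 in ZebDKO cells. Mmp9, a gelatinase known from macrophages and neutrophils, was at 0.5 to 0.9, 0.3 to 0.6 and 0.6 to 1.3 TPM, and the genotypes overlapped. The macrophage markers Ptprc, Adgre1 and Tyrobp, 3 of 8 listed, were at 0 in all 9 libraries. The summed TPM of the 8 was 2.5 to 3.5 in control, 31.3 to 32.9 in Runx1KO and 26.9 to 29.7 in ZebDKO cells, most of it Csf1r in the knockouts, and 6 neutrophil genes summed to at most 3.3 TPM in any library.

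**Figure D1:**
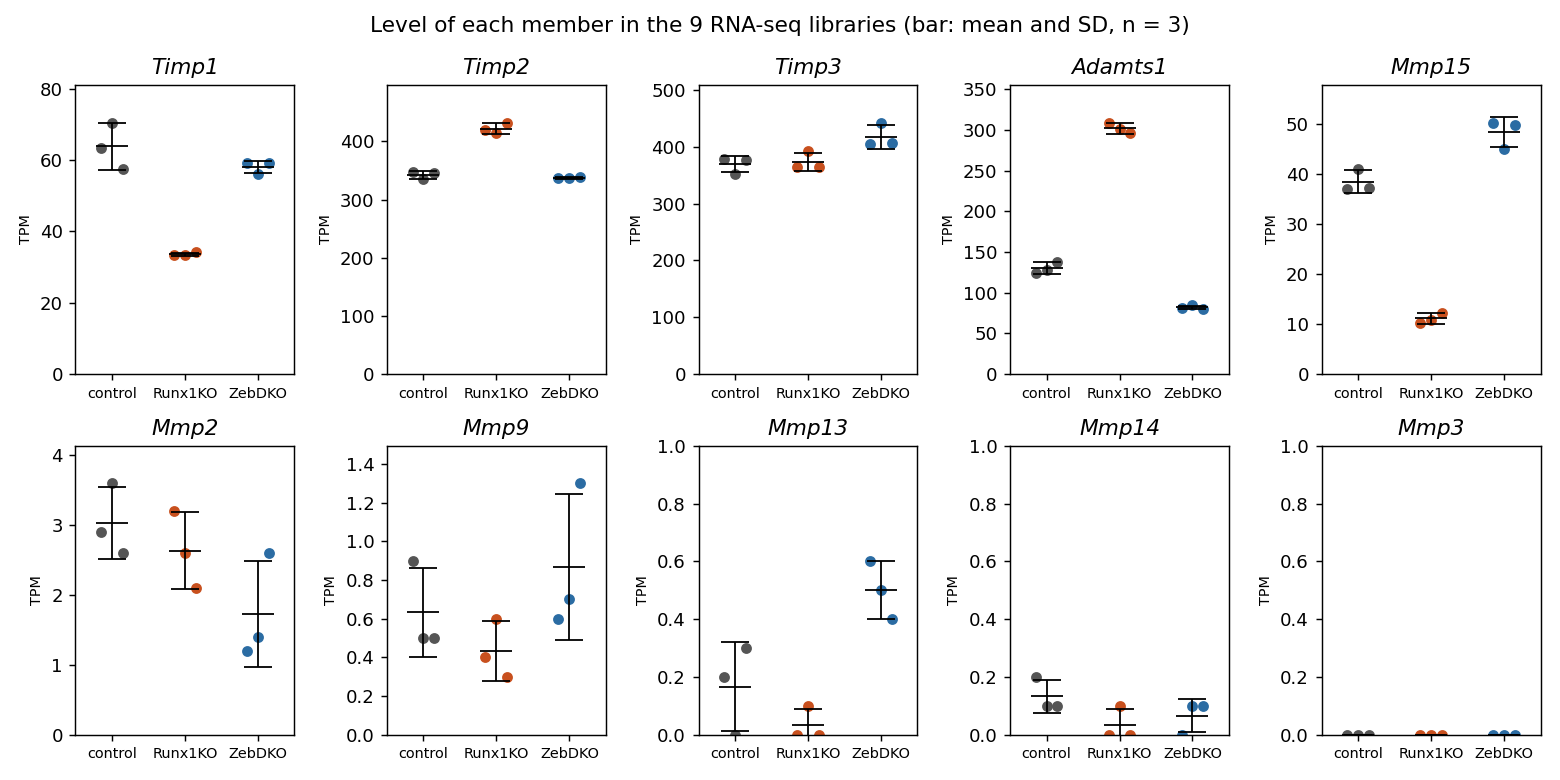
TPM (vertical axes, linear, from 0, with a separate scale per gene) of each member in control, Runx1KO and ZebDKO libraries. Points are libraries and bars give the mean and SD of 3. Adamts1 rises to about 302 TPM and Mmp15 falls to about 11.1 TPM in Runx1KO cells, while Timp2 and Timp3 stay at 335 TPM or more in all 9 libraries.

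Within control cells the inhibitors Timp3 and Timp2 were the most abundant members. TPM is a value per length, so levels of different genes can be set side by side. Timp3 was at 353 to 379 TPM, Timp2 at 335 to 347, Adamts1 at 124 to 138, Timp1 at 57.5 to 70.5, Mmp15 at 37.0 to 41.1 and Mmp2 at 2.6 to 3.6 TPM. No neighbours in this order overlapped among the 3 control libraries. In Runx1KO cells the order began with Timp2 (414 to 432 TPM), followed by Timp3 (364 to 392), Adamts1 (296 to 309), Timp1 (33.3 to 34.1) and Mmp15 (10.3 to 12.3), again without overlap of neighbours. In ZebDKO cells it was Timp3 (404 to 442 TPM), Timp2 (336 to 339), Adamts1 (80.2 to 84.5), Timp1 (56.2 to 59.1) and Mmp15 (45.0 to 50.3). The order differed between tables. In a deposited TPM table of the 6 control and Runx1KO libraries, Timp1 was above Adamts1 in control cells (114 ± 12.2 against 65.1 ± 4.61 TPM, SD, n = 3), and Timp2 and Timp3 overlapped there (193 to 206 and 186 to 201 TPM).

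The summed level of the 3 Timp genes lay between 758 and 839 TPM in all 9 libraries, while that of the Mmp members was mostly Mmp15. The summed TPM of the Timp members was 776 ± 15.9 in control, 829 ± 11.4 in Runx1KO and 813 ± 18.9 in ZebDKO cells (SD, n = 3). The summed TPM of the 6 Mmp members was 42.4 ± 2.49, 14.3 ± 0.404 and 51.6 ± 3.44 in the same order, and Mmp15 made up 89.8% to 91.4% of it in the control libraries, 74.1% to 83.7% in Runx1KO and 91.9% to 95.4% in ZebDKO libraries. The ratio of the 2 sums was 18.3 ± 1.39 in control, 58.1 ± 1.43 in Runx1KO and 15.8 ± 1.45 in ZebDKO cells. The 17 other Mmp genes are outside this ratio. They summed to 50 to 53.1 TPM in control, 41.3 to 44.8 in Runx1KO and 44.4 to 46.4 in ZebDKO libraries. The ratio therefore holds for the members and not for all Mmp genes. These sums describe transcripts and were not tested.

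Adamts1 was higher and Mmp15 lower in Runx1KO than in control cells, each by more than 2-fold. Of the 6 members tested against control, 1 was called higher and 1 lower (limma on log2(TPM+1), Benjamini-Hochberg over 13067 genes, called beyond 2-fold with adjusted p under 0.05), beside 13.0% of all genes tested called in either direction, 7.91% higher and 5.10% lower. The libraries of both genotypes did not overlap for Mmp15, Timp1, Timp2 and Adamts1, which is 4 of 6 members, beside 73.7% of all genes tested. With this small spread between libraries, 70.5% of all genes had an adjusted p under 0.05. Control libraries are shared by both comparisons against control.

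Mmp15, a membrane-anchored metalloproteinase, had 37.0, 41.1 and 37.3 TPM in control libraries and 10.3, 10.8 and 12.3 TPM in Runx1KO libraries. Every Runx1KO library was below every control library. The log2 fold change on the TPM+1 scale was -1.70 ± 0.07 (SE, limma adjusted p 1.27e-06), an absolute change larger than or equal to that of 93.6% of the genes tested. In ZebDKO cells Mmp15 was at 50.3, 45.0 and 49.9 TPM, above all control libraries, with a log2 fold change of 0.32 ± 0.06 (limma adjusted p 0.0017) that stayed under the 2-fold limit. Between the knockouts the difference was the largest among the members in absolute size, at a log2 fold change of -2.03 ± 0.07 for Runx1KO over ZebDKO (limma adjusted p 4.1e-07).

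Mmp15 was also the member whose start lay in chromatin that closed. Mmp15 (ENSMUSG00000031790.6) lies on the plus strand at chr8:97876168-97898193 of mm9. Of the deposited ATAC-seq lists, the closing list holds regions at least 2-fold less accessible in Runx1KO than in control cells, the opening list regions at least 2-fold more accessible, and the stable list the others. A closing region at chr8:97876031-97877238 spanned the Mmp15 start, from 137 bp upstream to 1070 bp downstream across UTR and coding sequence, and overlapped no Runx1 peak of control cells and no Runx2 peak of either line. A closing region within 500 bp of the start was found for 1 of 10 members and for 1.63% of 22380 protein-coding genes. An opening region lay 33.8 kb downstream of the start in intergenic sequence, 6 stable regions lay between 3.3 kb upstream and 25.9 kb downstream, and the only ChIP-seq peak in the domain was a Runx2 peak of Runx1KO cells 5.2 kb upstream. Outside the domain, the nearest Runx1 peak and the nearest Runx2 peak of control cells both lay 20.1 kb upstream of the start. The 137 bases of the closing region before the annotated start are shown because they are the part of the promoter that closed, with CAGGTG or CAGGTA matches on either strand, the E-box letters that Zeb factors are known to bind, in capitals.
Mmp15, chr8:97876031-97876167, plus strand: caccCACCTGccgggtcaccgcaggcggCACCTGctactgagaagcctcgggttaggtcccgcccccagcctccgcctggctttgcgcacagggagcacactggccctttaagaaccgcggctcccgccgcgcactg
The capitals mark 2 matches, both CAGGTG on the minus strand. At least 1 such match was found in 13.3% of the 137-base windows before all 22380 starts, and the share with 2 was not counted. The rest of the closing region was not searched. No TGTGGT, the core letters bound by Runx factors, and no TGAGTCA, the AP-1 letters, were found in this window on either strand, beside 6.89% and 2.19% of all windows. A match of letters is a description of the sequence and not a measured site.

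Adamts1 was at 124, 128 and 138 TPM in control and at 309, 301 and 296 TPM in Runx1KO libraries. All Runx1KO libraries were above all control libraries, with a log2 fold change of 1.21 ± 0.04 (SE, limma adjusted p 4.92e-07), or 2.31-fold on the TPM+1 scale. In ZebDKO cells it was at 81.0, 84.5 and 80.2 TPM, below every control library, and the log2 fold change of -0.66 ± 0.05 (limma adjusted p 9.66e-06) did not reach the 2-fold limit. The direct comparison gave a log2 fold change of 1.87 ± 0.03 for Runx1KO over ZebDKO (limma adjusted p 2.14e-08), 3.66-fold on the TPM+1 scale. Adamts1 and Mmp15 thus stood on opposite sides of control in both knockouts, in opposite directions to each other.

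Adamts1 (ENSMUSG00000022893.8) lies on the minus strand at chr16:85794072-85803358, in a domain of 342 kb that reaches to its neighbour Adamts5, a further aggrecan-cleaving protease. Its start lay in a stable accessible region. Around the start, a Runx2 peak of control cells lay 1.3 kb upstream with a fold enrichment of 4.35, and a Runx2 peak of Runx1KO cells lay 0.7 kb upstream with a fold enrichment of 4.22. These 2 peaks did not overlap each other. The only Runx1 peak in the domain was 231 kb downstream of the start. The 2 closing regions lay 36.7 and 46.8 kb downstream of the start, and the single opening region, at chr16:85819268-85819580, lay 16.1 kb upstream in intergenic sequence. None of these 3 regions overlapped a Runx1 or Runx2 peak. The central 300 bases of the opening region are shown because it is the region of Adamts1 that changed in the direction of its RNA.
Adamts1, chr16:85819275-85819574, plus strand: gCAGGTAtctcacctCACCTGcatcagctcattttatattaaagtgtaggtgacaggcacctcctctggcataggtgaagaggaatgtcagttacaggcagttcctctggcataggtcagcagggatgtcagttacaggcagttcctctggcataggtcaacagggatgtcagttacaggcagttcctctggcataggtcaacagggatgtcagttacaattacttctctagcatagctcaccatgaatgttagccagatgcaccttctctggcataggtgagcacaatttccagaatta
The capitals mark a CAGGTA on the plus strand and a CAGGTG on the minus strand. CAGGTG or CAGGTA was present in 62.7% of the central 300 bases of all 9427 opening regions, so the matches do not set this region apart from its class. TGTGGT and TGAGTCA were not found on either strand, beside 21.0% and 33.3% of opening regions.

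Timp1 was lower in Runx1KO than in control cells, by less than the 2-fold limit. It was at 63.5, 70.5 and 57.5 TPM in control and at 33.3, 33.5 and 34.1 TPM in Runx1KO libraries. All Runx1KO libraries were below all control libraries, with a log2 fold change of -0.90 ± 0.07 (SE, limma adjusted p 2.69e-05). In ZebDKO cells Timp1 was at 59.1, 56.2 and 59.1 TPM, which overlapped control (log2 fold change -0.13 ± 0.07, limma adjusted p 0.134). Runx1KO was also below ZebDKO by a log2 fold change of -0.77 ± 0.03 (limma adjusted p 1.02e-06), with no overlap of libraries.

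Timp1 (ENSMUSG00000001131.5) lies on the plus strand at chrX:20447292-20451861, inside an intron of Syn1, and its start was in a stable region. Its only closing region, at chrX:20440607-20441064, lay 6.5 kb upstream across a coding exon of Syn1, whose own RNA was at 0.1 to 0.3 TPM in all 9 libraries. This region overlapped a Runx2 peak of control cells at chrX:20440689-20440812 with a fold enrichment of 3.42, and no Runx2 peak of Runx1KO cells or Runx1 peak. The 2 opening regions lay 50.4 and 53.0 kb upstream in introns of Araf. This Runx2 peak was chosen after the values were seen, and its sequence is shown because it is the only Runx peak of Timp1.
Timp1, chrX:20440689-20440812, plus strand: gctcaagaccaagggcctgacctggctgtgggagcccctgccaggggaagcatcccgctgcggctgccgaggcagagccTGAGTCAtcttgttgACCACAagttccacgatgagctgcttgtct
The capitals mark a TGAGTCA on the plus strand and, downstream of it, a TGTGGT on the minus strand. TGTGGT was present in 29.9% and TGAGTCA in 6.27% of the central 124 bases of 17360 Runx2 peaks of control cells.

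Timp2 was higher in Runx1KO than in control cells, also by less than the 2-fold limit. It was at 347, 335 and 345 TPM in control and at 419, 414 and 432 TPM in Runx1KO libraries. The groups did not overlap, and the log2 fold change was 0.30 ± 0.03 (SE, limma adjusted p 5.63e-05), or 1.23-fold on the TPM+1 scale. In ZebDKO cells it was at 336, 336 and 339 TPM, within the range of control (log2 fold change -0.02 ± 0.03, limma adjusted p 0.476). Runx1KO was above ZebDKO by a log2 fold change of 0.32 ± 0.02 (limma adjusted p 1.34e-05).

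The Runx1 peaks of Timp2 lay in stable regions. Timp2 (ENSMUSG00000017466.3) lies on the minus strand at chr11:118162383-118217054, and it had 3 Runx1 peaks, at 7.7, 9.6 and 24 kb upstream of the start, all intergenic. Each of the 3 overlapped a Runx2 peak in control and in Runx1KO cells and a stable accessible region. A further Runx2 peak of Runx1KO cells lay 0.3 kb downstream of the start in UTR, in a stable region, with a fold enrichment of 3.01. It overlapped no Runx2 peak of control cells and no Runx1 peak. The peak at 24 kb, chr11:118240812-118241324, had the highest Runx1 enrichment among all 9 Runx1 peaks of members, at 7.66-fold, and the Runx2 enrichment there was 8.09-fold in control and 8.76-fold in Runx1KO cells. No closing region was assigned to Timp2, and its 2 opening regions, 5.3 kb upstream and 6.4 kb downstream of the start, overlapped no Runx peak. The nearest closing region lay 33.6 kb downstream of the start, within the gene but outside its domain. The central 300 bases of the peak at 24 kb were chosen after its enrichment was seen.
Timp2, chr11:118240919-118241218, plus strand: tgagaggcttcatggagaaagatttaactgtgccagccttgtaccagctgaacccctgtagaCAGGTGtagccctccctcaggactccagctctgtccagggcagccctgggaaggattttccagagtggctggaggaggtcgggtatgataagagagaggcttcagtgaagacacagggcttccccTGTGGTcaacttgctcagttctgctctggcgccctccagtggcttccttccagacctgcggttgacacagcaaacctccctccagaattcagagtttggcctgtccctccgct
The capitals mark a CAGGTG and a TGTGGT, both on the plus strand. TGTGGT was present in 38.2% of the central 300 bases of 9977 Runx1 peaks and CAGGTG or CAGGTA in 23.5%.

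Timp3 did not differ detectably between Runx1KO and control cells. It was at 379, 353 and 377 TPM in control and at 365, 392 and 364 TPM in Runx1KO libraries, which overlapped (log2 fold change 0.01 ± 0.04, SE, limma adjusted p 0.771). In ZebDKO cells it was at 404, 442 and 407 TPM, above all control libraries, with a log2 fold change of 0.18 ± 0.05 (limma adjusted p 0.00866), and Runx1KO was below ZebDKO by a log2 fold change of -0.16 ± 0.05 (limma adjusted p 0.0127). The last exon of Timp3 shares 1733 bp, chr10:85810519-85812251, with an exon of 1 annotated Syn3 transcript on the other strand, and the strand setting of the counting was not given in the sources used here. Syn3 itself was at 0.7 to 1.6 TPM.

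The steady level of Timp3 stood beside the largest number of closing regions among the members. Timp3 (ENSMUSG00000020044.7) lies on the plus strand at chr10:85763117-85812251 within Syn3, and its domain of 475 kb, the longest of the 10, held 5 closing, 2 opening and 10 stable regions. The closing region at chr10:85802187-85803113, in an intron 39.5 kb downstream of the start, was the only closing region assigned to a member that overlapped a Runx1 peak. It also overlapped Runx2 peaks of control cells (4.83-fold) and Runx1KO cells (3.86-fold). The other 4 closing regions, between 19.0 and 199.8 kb upstream, overlapped no Runx peak. The Runx1 peak within the closing region, at chr10:85802348-85802623 with a fold enrichment of 4.96, is shown whole.
Timp3, chr10:85802348-85802623, plus strand: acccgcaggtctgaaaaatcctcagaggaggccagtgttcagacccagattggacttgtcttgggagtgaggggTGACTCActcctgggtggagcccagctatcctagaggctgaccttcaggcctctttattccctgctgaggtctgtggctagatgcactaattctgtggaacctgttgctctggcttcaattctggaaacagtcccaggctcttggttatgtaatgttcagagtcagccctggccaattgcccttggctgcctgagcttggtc
The capitals mark a TGACTCA, the same AP-1 letters as TGAGTCA read on the other strand. Neither TGTGGT nor CAGGTG or CAGGTA was found on either strand, beside 37.3% and 21.9% of windows of 276 bases at the centre of 9977 Runx1 peaks. AP-1 letters were present in 10.7% of those windows.

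Mmp2, a gelatinase that cuts denatured collagen and basement membrane collagen, was near the filter in every genotype. It was at 2.9, 3.6 and 2.6 TPM in control, at 3.2, 2.6 and 2.1 in Runx1KO and at 1.2, 1.4 and 2.6 in ZebDKO libraries. All 3 groups overlapped. The log2 fold change was -0.15 ± 0.14 in Runx1KO (SE, limma adjusted p 0.353) and -0.59 ± 0.19 in ZebDKO cells (limma adjusted p 0.0244) against control, and 0.43 ± 0.20 between the knockouts (limma adjusted p 0.0824). Over the alternatives given at the end, the limma adjusted p in ZebDKO against control ran from 0.00174 to 0.0813. It was thus not under 0.05 in every one. Mmp2 (ENSMUSG00000031740.7, chr8:95351227-95377316, plus strand) had no ATAC-seq region within 500 bp of its start. Its 2 stable regions lay in introns 20 and 22.2 kb downstream, and both overlapped Runx2 peaks in control and Runx1KO cells, the first also a Runx1 peak of 3.98-fold enrichment. A closing region lay 23.1 kb downstream of the start, within the gene but outside its domain.

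**Figure D2:**
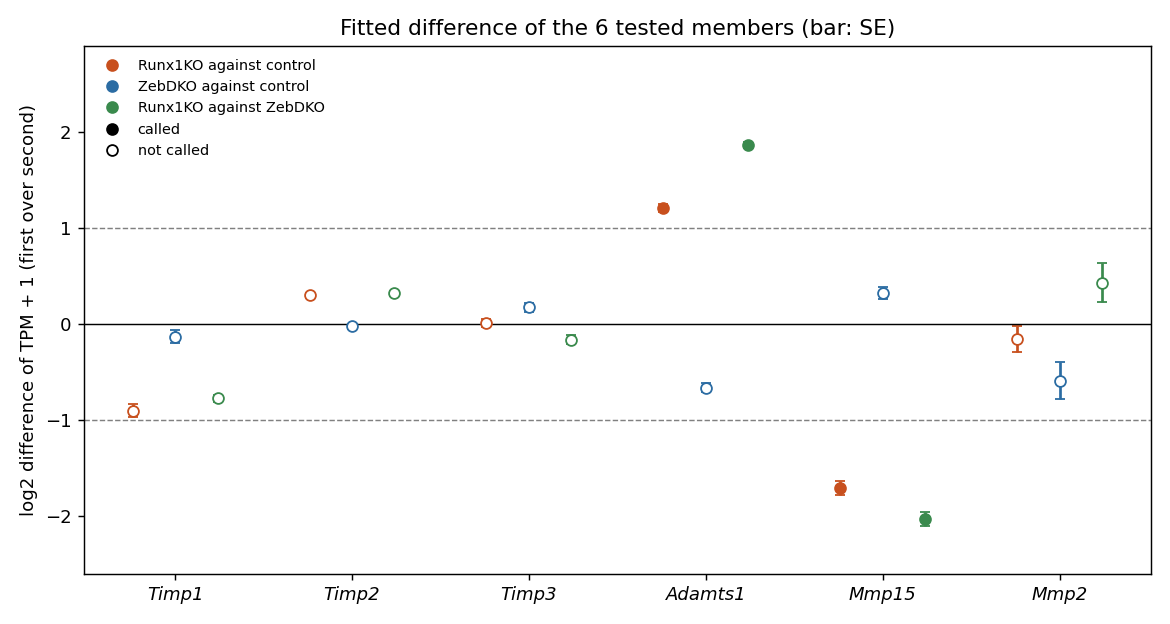
Fitted log2 difference of TPM+1 (vertical axis) for the 6 tested members in the 3 comparisons, named by colour, with the first genotype of each name over the second. Bars are SE, dashed lines mark a log2 difference of 1 in either direction, and filled points were called. The filled points are Adamts1 at 1.21 and 1.87 and Mmp15 at -1.70 and -2.03.

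In ZebDKO against control none of the 6 tested members was called by limma, beside 14.8% of all 12974 genes tested, 7.49% higher and 7.28% lower. At an unadjusted p under 0.05, 4 of the 6 passed (Mmp2, Mmp15, Timp3 and Adamts1), and the same 4 had an adjusted p under 0.05, beside 79.4% of all genes. Mmp15, Timp3 and Adamts1 did not overlap with control, which is 3 of 6, beside 81.0% of all genes. The median log2 fold change of all genes was -0.18 in this comparison, and 0.00 after median-ratio scaling, which moved Mmp15 to 0.52, Timp3 to 0.38, Adamts1 to -0.46, Timp2 to 0.18 and Timp1 to 0.07. The sign of Timp1 and of Timp2 in ZebDKO against control therefore turned with the scaling, and the adjusted p of Timp2 passed 0.05 after it (limma adjusted p 0.000558). In Runx1KO against ZebDKO the same scaling moved the median of all genes from 0.15 to 0.01, Timp2 from 0.32 to 0.17 (limma adjusted p 0.000457) and Timp3 from -0.16 to -0.31 (limma adjusted p 0.000428). For Runx1KO against control the median of all genes was -0.06, and in the median the 6 members stood at -0.07. In Runx1KO against ZebDKO 1 member was called higher (Adamts1) and 1 lower (Mmp15) of 6 tested, beside 15.8% of all 13071 genes called in either direction, 9.20% higher and 6.59% lower. Here 5 of the 6 members, all but Mmp2, had libraries that did not overlap, beside 81.7% of all genes, and 80.0% of all genes had an adjusted p under 0.05.

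Runx peaks and accessible regions were assigned to a gene when their middle fell in its domain, which ran from 5 kb upstream to 1 kb downstream of the start and on to the neighbouring domains, at most 1000 kb. A Runx1 peak was assigned to 5 of 10 members, beside 40.5% of 22380 protein-coding genes, and a Runx2 peak to 7 of 10 members in control and 7 of 10 in Runx1KO cells, beside 57.1% and 52.8%. Closing regions were assigned to 4 members (Mmp15, Timp1, Timp3 and Adamts1), beside 29.9% of genes, and opening regions to 6 members, beside 36.8%. With 10 genes these shares are near those of all genes. The domains of Mmp2 and Timp2 ended within the gene, and a closing region beyond that end in each gene was not assigned. Of the 9 closing regions of members, 1 overlapped a Runx1 peak, beside 11.8% of all 8741 closing regions, 2 a Runx2 peak of control cells, beside 21.5%, and 1 a Runx2 peak of Runx1KO cells, beside 20%. Stable regions were assigned to 8 members, beside 76.5% of genes, and of their 36 stable regions 6 overlapped a Runx1 peak, 11 a Runx2 peak of control and 10 a Runx2 peak of Runx1KO cells, beside 10.3%, 23.3% and 24.2% of all stable regions. None of the 9 opening regions overlapped a Runx1 or Runx2 peak, beside 1.25% with Runx1, 3.64% with Runx2 of control and 3.28% with Runx2 of Runx1KO cells among all opening regions.

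The members under the filter had no accessible region at their start. An ATAC-seq region of any class lay within 500 bp of the start for Mmp15, Timp1, Timp2 and Adamts1, 4 of 10 members, beside 49.1% of all protein-coding genes. It was stable for 3 of them (45.1% of genes), and no member had an opening region there (2.46%). It was present for 85.3% of genes with a control mean of at least 1 TPM and for 11.6% of those under 1 TPM. These members, Mmp3, Mmp9, Mmp13 and Mmp14, were among the latter. Mmp2 had none at 3.03 TPM, and Timp3 had none at 370 TPM in control cells, in contrast to 91.9% of genes of at least 100 TPM, and its nearest stable region began 984 bp downstream of the start across UTR and coding sequence. Mmp3 and Mmp13, both on chromosome 9, had no region or peak of any list in their domains. Mmp9 had a Runx2 peak 9.4 kb upstream in control cells and a different one in its coding sequence 12.6 kb downstream in Runx1KO cells, as well as an opening region 8.2 kb upstream. The Runx1 and Runx2 peaks assigned to Mmp14, 4.8 and 4.7 kb upstream, lay across UTR and coding sequence of Mrpl52, a mitochondrial ribosomal protein gene.

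**Figure D3:**
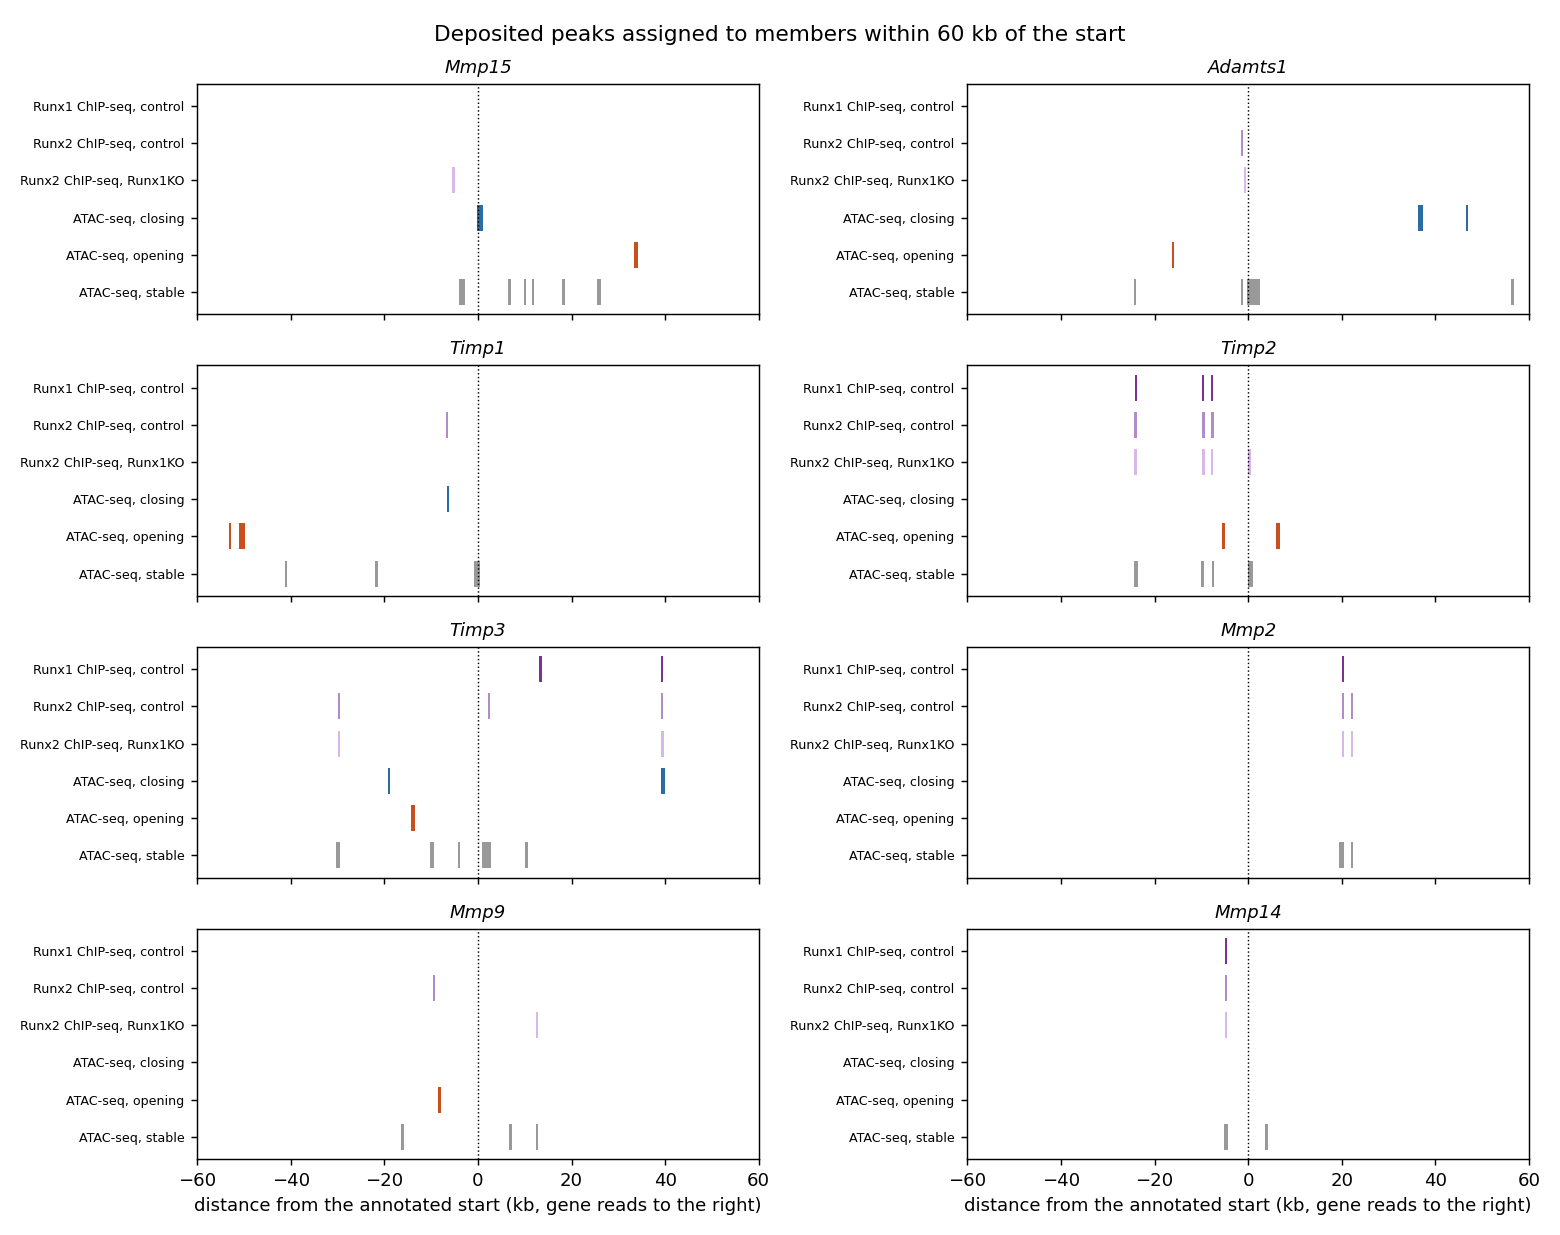
Deposited Runx1 and Runx2 ChIP-seq peaks and ATAC-seq regions (rows) assigned to 8 members, by distance from the annotated start in kb (horizontal axis, the gene reads to the right). Regions under 500 bp are drawn 500 bp wide, regions over 60 kb away are not drawn, and Mmp3 and Mmp13 had none. The closing region of Mmp15 lies across its start, and the Runx1 peaks of Timp2 line up with Runx2 peaks of both lines and stable regions.

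The other genes of matrix turnover were taken as 4 lists. Of 17 other Mmp genes 4 passed the filter. In Runx1KO cells 1 was called against control, as lower, beside 5.10% of all genes called lower. This was Mmp10, a stromelysin, at 1.3 to 2.3 TPM in control, listed at 0 in all Runx1KO libraries and at 7.3 to 8.2 TPM in ZebDKO libraries, where it was called higher (log2 fold change 1.72 ± 0.14, SE, limma adjusted p 2e-05). Mmp19 was called lower in ZebDKO cells (-1.24 ± 0.07, limma adjusted p 3.44e-06), where it was at 2.3 to 2.7 TPM beside 7.1 to 7.5 in control. In ZebDKO cells 7.49% of all genes were called higher and 7.28% lower. The median log2 fold change of the 4 tested genes was -0.74 in Runx1KO and -0.30 in ZebDKO against control, beside medians of -0.06 and -0.18 over all genes.

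Of 18 other Adamts genes 6 passed the filter, and 4 were called in Runx1KO against control, all of them lower, beside 5.10% of all genes called lower. The median log2 fold change of the 6 was -1.20, beside -0.06 over all genes. Adamts12 and Adamts14 were under 1 TPM in every Runx1KO library and passed the filter only through control. They could come out only lower, in the count and in the median. Adamts6 fell from 13.3 to 15.1 TPM in control to 2.3 to 2.6 TPM in Runx1KO libraries (log2 fold change -2.14 ± 0.07, SE, limma adjusted p 2.89e-07). Adamts5, next to Adamts1 on chromosome 16, was at 7.8 to 8.9 TPM in control and 2.1 to 2.5 TPM in Runx1KO libraries (-1.5 ± 0.08, limma adjusted p 2.94e-06), so these neighbours moved in opposite directions. In ZebDKO cells 2 were called, both higher, namely Adamts12 at 13.0 to 14.2 TPM beside 2.0 to 2.3 in control (2.23 ± 0.07, limma adjusted p 1.76e-07) and Adamts4 at 43.9 to 49.4 TPM beside 12.8 to 15 (1.68 ± 0.07, limma adjusted p 8.41e-07). The share of all genes called higher in ZebDKO cells was 7.49%. In the direct comparison 5 of the 6 were called, all of them lower in Runx1KO than in ZebDKO cells, beside 6.59% of all genes called lower. Adamts12 and Adamts14 passed the filter there only through ZebDKO, so they could come out only lower.

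The list of activators and inhibitors of matrix proteases held 18 genes, of which 7 were tested in Runx1KO and 8 in ZebDKO cells against control. In Runx1KO cells 2 were called higher and 1 lower, beside 7.91% and 5.10% of all genes. Plat, the tissue-type plasminogen activator, was at 65.8 to 76.3 TPM in control and 285 to 303 TPM in Runx1KO libraries (log2 fold change 2.05 ± 0.06, SE, limma adjusted p 1.43e-07), and Plaur, the urokinase receptor, was at 211 to 213 and 431 to 435 TPM (1.03 ± 0.02, limma adjusted p 3.24e-08). Plaur was at 424.5 to 457 TPM in ZebDKO libraries and did not differ detectably between the knockouts (limma adjusted p 0.334). Plau, the urokinase that Plaur binds, was at 3.2 to 5.5 TPM in control, 0 to 0.2 in Runx1KO and 9.4 to 10.6 in ZebDKO libraries. In ZebDKO cells 4 were called, all of them higher, beside 7.49% of all genes called higher. Serpine2 was at 0 to 0.1 TPM in control and 1.1 to 1.9 TPM in ZebDKO libraries (1.28 ± 0.14, limma adjusted p 9.45e-05), and Plat was at 144 to 152 TPM in ZebDKO libraries (1.06 ± 0.06, limma adjusted p 2.37e-06). Serpine2 passed the filter there only through ZebDKO. In Runx1KO libraries it was at 0.9 to 1.1 TPM, and against control it did not pass the filter. Between the knockouts Serpine2 was not called (limma adjusted p 0.0675). The median log2 fold change of the tested genes of the list was 0.05 in Runx1KO and 0.78 in ZebDKO against control, beside -0.06 and -0.18 over all genes.

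Of 9 Adam sheddases, membrane proteases that release surface proteins, 5 were tested in Runx1KO and 6 in ZebDKO cells against control. Adam8 was called higher in both, at 5.7 to 6.0 TPM in control, 20.4 to 22.6 in Runx1KO and 17.9 to 19.5 in ZebDKO libraries. Adam12 was called in ZebDKO cells, at 14.7 to 18 TPM beside 0.2 to 0.3 TPM in control and 0 to 0.1 TPM in Runx1KO libraries. These were the called genes of the list against control, beside 7.91% of all genes called higher in Runx1KO and 7.49% in ZebDKO cells. The median log2 fold change was -0.24 in Runx1KO and -0.14 in ZebDKO cells, beside -0.06 and -0.18 over all genes.

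**Figure D4:**
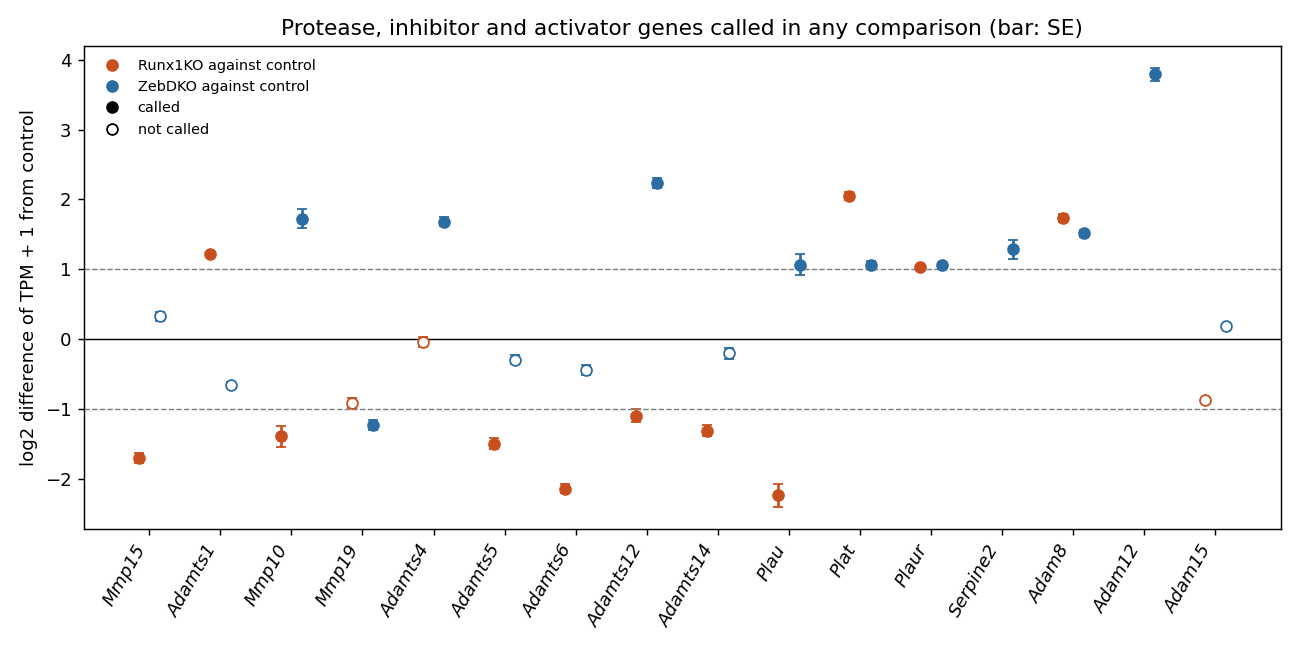
Fitted log2 difference of TPM+1 from control (vertical axis) in Runx1KO and ZebDKO cells for the members and listed genes called in at least 1 of the 3 comparisons. Bars are SE, filled points were called, dashed lines mark a log2 difference of 1 in either direction, and a gene without a point in a comparison did not pass the filter there. Adamts6 and Plau lie lowest in Runx1KO cells and Adam12 highest in ZebDKO cells, and the same 3 control libraries serve both colours.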

How the data were processed

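RNA-seq, ATAC-seq and ChIP-seq were made from 9, 6 and 12 libraries of mK4 cells. The members and gene lists were chosen with earlier results of these data known. Per the paper, the authors used STAR to align trimmed reads to mm9, counted them on RefSeq genes with featureCounts 1.6.2 and compared genes by DESeq2 1.26.0. The TPM values were deposited by the authors in a table of 9 libraries with 1 decimal and a table of 6 libraries with 2 decimals, which gave different levels for the same libraries, so levels were compared only within a table. TPM keeps no read number, so the depth of each library is unknown and no interval from counting was given. Peaks of the ChIP-seq were called by the authors with MACS2 on pooled replicates, with Runx1-antibody peaks of Runx1KO cells removed, and the deposited fold (a ratio over local background) and -log10 q were used. The deposited ATAC-seq lists were used by position. Their fold change and -log10 columns hold the authors' own comparison and were not used. All peak lists are pooled over replicates, so no test across replicates was possible. The labels describe the extraction of the ZebDKO libraries apart from that of the others, and date or batch is not given in the sources used here, so batch and genotype cannot be told apart.

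A filter kept genes of 1 TPM or more in 3 or more of 6 libraries, and limma 3.58.1 in R 4.3.3 was run on log2(TPM+1), (prior variance with a trend), with two-sided tests and Benjamini-Hochberg adjustment over all genes tested. Calls needed over 2-fold and an adjusted p under 0.05. Fold changes on this scale understate changes of low genes. A gene under 1 TPM in all libraries of 1 genotype passed the filter only through the other. It could be called only as higher in that other genotype. Among named genes this also holds for Osr1, Gdnf, Mmp10 and Plau in Runx1KO against control. It holds for Adam12 and Serpine2 in ZebDKO against control. Named genes were all 10 members and, per list, direction and comparison, at most the 2 called genes of largest absolute fold change. One gene of the list of activators and inhibitors is not reported here and was left out of its counts. Genes named as flagged, and regions other than those that changed in the direction of Mmp15 and Adamts1, were chosen after their values were seen. Peaks were placed on GENCODE vM1 protein-coding genes of NCBIM37 (mm9) with Python 3.11.15. The RefSeq start of 8 members (from promoters of GRCm38.p6), located in NCBIM37 by sequence match, lay between 6 bp upstream and 329 bp downstream of the GENCODE start. The fit and the peak assignment were tested on simulated data. In bulk RNA, fewer cells with a transcript and less RNA per cell cannot be told apart. Replicate numbers were not taken as pairs, since same-numbered libraries of different genotypes correlated at -0.05 to 0.04 in their deviations from the group means. Alternatives are given at the end.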

Additional observations from a re-analysis of the deposited data

Results flagged for a closer look

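For 6 genes among the members and the 4 lists of other matrix turnover genes, the knockouts differed directly by over 2-fold, with opposite signs against control and an adjusted p under 0.05 in each (limma on log2(TPM+1), 3 libraries per genotype). The values that follow are fitted log2 differences of Runx1KO over ZebDKO. Among the members, Mmp15 stood at -2.03 and Adamts1 at 1.87. Both held in 3 of 3 libraries of each knockout, on opposite sides of every control library. The rule that picked these genes makes such a separation likely, so it adds no support. How many of all genes meet the rule was not counted. Among the 4 lists, Mmp10 stood at -3.12, with Runx1KO libraries listed at 0 so that the value depends on the pseudocount, Adamts12 at -3.33, Plau at -3.30 and Adam15 at -1.06. Adam15, a membrane-anchored disintegrin protease, was at 207 to 211 TPM in control, 111 to 116 in Runx1KO and 235 to 240 in ZebDKO libraries. For Mmp10, Adamts12, Plau and Adam15, as for Mmp15, Runx1KO cells had the lower level and ZebDKO cells the higher, and Adamts1 had the reverse order among these 6. Groups of 3 libraries were too small for a check of single outlying libraries.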

How the results depend on the processing

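Adamts1 and Mmp15 were called in Runx1KO against control and in Runx1KO against ZebDKO under every alternative that changed the pseudocount, filter, scaling, trend, block, libraries or table. Among 273 refits of the 6 members, 268 kept their sign and side of the threshold, 0 gained or lost a call, and 5 turned in sign, none of them called. Timp3 in Runx1KO against control stood at -0.00797 after quantile normalization and between -0.0205 and 0.0329 with a library left out, below 0 without control replicate 2 and without Runx1KO replicate 2. After median-ratio scaling, Timp1 stood at 0.0691 and Timp2 at 0.179 in ZebDKO against control. Without a fold limit 4, 4 and 5 members were called in Runx1KO against control, ZebDKO against control and Runx1KO against ZebDKO, and with a limit of 1.3-fold 2 (Mmp2 and Adamts1) in ZebDKO against control, where the main count was 0. Leaving out a library kept 2, 0 and 2 calls. The replicate block gave 2, 0 and 2 calls as well. In Runx1KO against control the same-numbered libraries showed no positive correlation of over 0.1 in any pair, and 1 of 6 libraries correlated best with its own number. The table of 6 libraries gave log2 fold changes of 1.31 for Adamts1 and -1.60 for Mmp15.

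In that table, the log2 ratio of Adamts1 to Timp1 was -0.81 in control and 1.46 in Runx1KO cells, in place of 1.03 and 3.17, and the ratio of summed Timp to summed Mmp was 24.9 and 74.3. Without Mmp15 the ratio was 197 in control, 273 in Runx1KO and 275 in ZebDKO cells, so its difference between Runx1KO and ZebDKO rests on Mmp15. These alternatives, and the window at the start, were chosen after seeing the data. Leaving out 1 library moved these ratios of summed Timp to summed Mmp to between 17.9 and 19.1 in control cells, 57.6 and 58.9 in Runx1KO cells and 15 and 16.3 in ZebDKO cells. Runx1 peaks were assigned to 3 members within 20 kb of the start (25.3% of all genes), closing regions to 8 members within 100 kb (45.0%) and to 1 within 500 bp, and 0 closing regions were covered by a Runx1 peak over at least 50% of their length (2.85% of all). The other peak counts stayed within 1.5 times of the main count. An alternative that would have filtered ATAC-seq regions on a deposited value was not run, since that column is the authors' own comparison. Depth limits could not be set from TPM.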
